A study of Oryza sativa Japonica Group with 6 samples.

Results

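Transcript levels of ATP-binding cassette (ABC) transporters were set side by side in coleoptiles of *rad* mutant and wild-type rice. A coleoptile is the hollow sheath through which the shoot of a germinating grass emerges. Both genotypes were of the cultivar Kinmaze and were germinated under submergence, with 15 seeds sown per bottle of 1 L of water, and the series title describes *rad* as reduced in alcohol dehydrogenase activity; the age at harvest, the lesion in *rad* and the number of mutant lines are not in the sources used here. Each of 6 two-colour arrays carried *rad* mutant cRNA in one dye and wild-type cRNA in the other, with 3 replicates and a dye swap of each. The coleoptiles had been cut by laser microdissection from frozen sections of 8 µm, and their RNA had been amplified linearly before labelling. The ABC transporters were taken as all probes, apart from controls, whose description holds the words ABC transporter, ATP-binding cassette, ABC-type or P-glycoprotein. That gave 52 of 21495 probes, each standing for its own rice cDNA. The rule reads descriptions and no measured value.

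ABC proteins carry a domain that binds and hydrolyses ATP, and most of them use it to drive a substrate across a membrane. In plants the ABCG subfamily exports cuticular lipids and defence compounds, full-length ABCB proteins include auxin exporters, and ABCC pumps move glutathione conjugates into the vacuole. ABCE and ABCF proteins have no membrane part and act with ribosomes.

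A description on this array is the best match of the cDNA and is mostly from another species, so a name such as ATM3 below means a rice cDNA that resembles that gene. The 52 cDNAs carried 26 distinct descriptions, and 13 descriptions were shared by more than 1 cDNA, which may therefore stand for 1 gene or for several relatives. Subfamilies were assigned from those descriptions, and among them 9 cDNAs were of the ABCG branch called pleiotropic drug resistance (PDR), 15 of the white-brown complex (WBC) branch of ABCG, 10 of the multidrug resistance (MDR) type of ABCB and 4 of the shorter ATM and TAP types of ABCB. There were also 5 ABCF and 1 each of ABCC, ABCA and ABCI, besides 1 P-glycoprotein homologue of barley whose type is not stated and 1 match to the fungal gene atrE. A further cDNA (AK099974) resembles Arabidopsis At5g64940, or OSA1, which is described on the array as an ABC transporter but belongs to the ABC1-like kinases.

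Between 90.4% and 95.7% of all probes were well above background in a channel, where median signals were 3.998 to 10.3-fold over local background, and the number of arrays limits the precision. Separate cultures are not mentioned in the labels, so the p-values cover the spread among these replicates alone, and that spread may be technical. No transcript that defines the coleoptile was fixed, so the tissue label could not be checked against such a marker. Of the marker probes for photosynthetic leaf 2 of 46 tested had risen and 15 had fallen in the mutant, where 14.6% of all probes were called higher and 10.1% lower. These markers had summed normalized intensities of 48700 to 51303 in mutant and 51630 to 52513 in wild-type replicates. Their smallest p-values belonged to a Rubisco large subunit cDNA (AK062203, log2 ratio -0.58 ± 0.07) and a Rubisco subunit binding protein (AK100602, -0.57 ± 0.09, and -0.85 with the scanner's processed signals). The latter entered the list through the word Rubisco and is not itself a Rubisco subunit. The same holds for AK061410 and AK101334, both among the lower ones. Of 6 root-specific probes 2 were lower, RCc2 (AK063090, -0.31 ± 0.06, and -0.56 with the scanner's processed signals) and RCc3 (AK062381, -1.19 ± 0.47), with sums of 24793 to 62497 in mutant and 60209 to 77371 in wild-type replicates. Without replicate 1 or 2 both calls were lost (adjusted p = 0.0651 and 0.0884 for RCc2, 0.107 and 0.0962 for RCc3). The median log2 ratio of the root list was -0.65, -0.66 and 0.01 in replicates 1, 2 and 3. No storage protein probe of endosperm or embryo passed in limma (0 of 11, with 3 at an unadjusted p under 0.05), and their sums were 3295 to 3462 in mutant and 3714 to 3776 in wild-type replicates. Of the marker probes, 0 leaf, 1 root and 1 storage probe were not well above background on any array. The part of other tissues in the results below was not tested, and less RNA per cell cannot be told apart from fewer cells of a type.

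Of the 52 ABC cDNAs 49 were bright enough to be tested, and 12 differed between the genotypes: 9 were higher and 3 were lower in the *rad* mutant. A cDNA counted as called where limma gave p under 0.05 after Benjamini-Hochberg adjustment over all 19947 probes tested. The share of 24.5% called was close to the 24.7% of all probes, with 18.4% against 14.6% called higher and 6.12% against 10.1% called lower. The median log2 ratio of mutant over wild type was -0.02 over the ABC cDNAs and -0.01 over all probes, and the median size of the change was 0.07 and 0.09. ABC cDNAs thus passed about as often as probes in general. A single cDNA rose at least 2-fold (1.79% of all probes did) and none fell so far (0.822% of all probes did), whereas 8 of the 12 changes were under 1.5-fold.

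**Figure D1:**
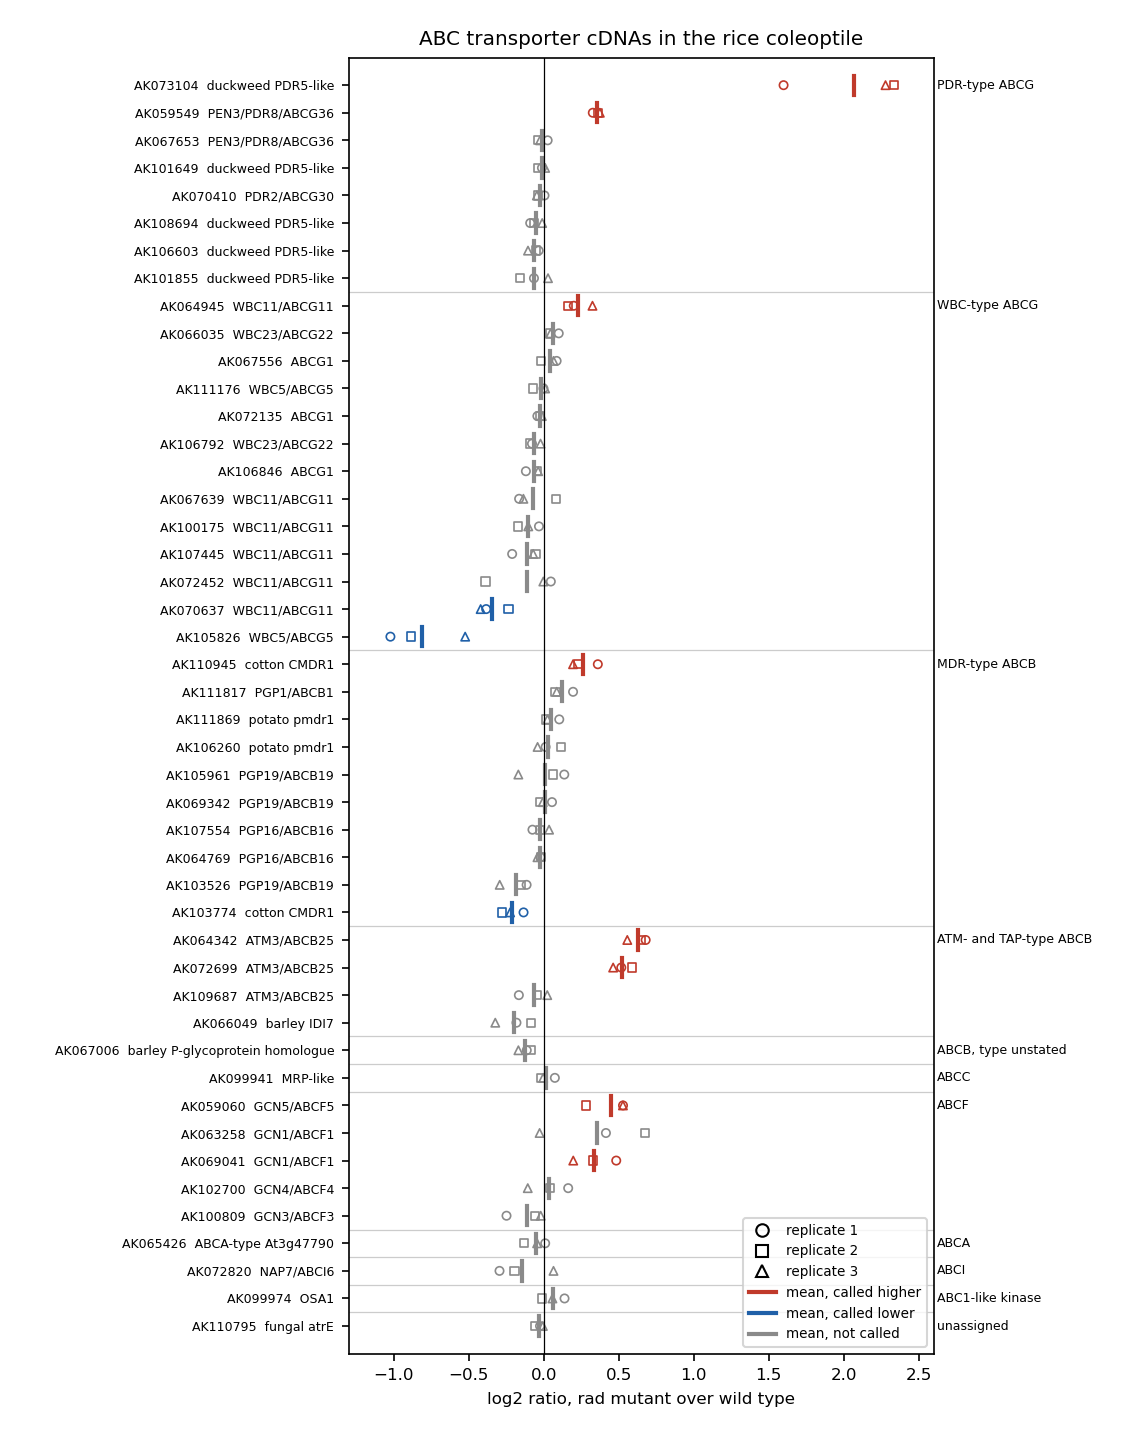
Log2 ratio of *rad* mutant over wild type for 46 ABC cDNAs tested, grouped by subfamily; open symbols are the 3 replicates, each a mean of 2 arrays, and bars are their means. Most cDNAs lie near 0, the PDR5-like cDNA AK073104 stands at 2.07, and calls in both directions occur within WBC-type ABCG and MDR-type ABCB.

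**Figure D2:**
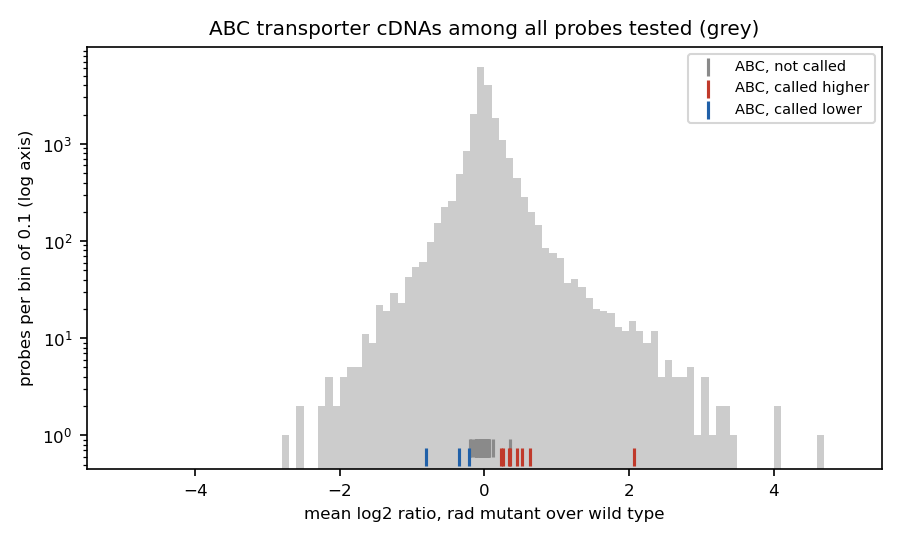
Distribution of the mean log2 ratio of *rad* mutant over wild type for all 19947 probes tested (grey, counts per bin on a log axis), with a tick for each of 46 ABC cDNAs. They ran from -0.81 to 2.07, with 27 of 46 below 0.

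The values per genotype below are normalized intensities, geometric means of both dyes of a replicate after loess within arrays and quantile scaling between them; they include an added offset of 50, so ratios of dim probes are compressed. In all 12 called cDNAs the 3 mutant and 3 wild-type intensities did not overlap, and the ratio had the same sign on all 6 arrays. Of the 49 ABC cDNAs tested, called or not, 12 showed no overlap and 17 had one sign on all 6 arrays. Among all probes tested 29.2% showed no overlap and 38% had one sign on all 6 arrays. Both features come from the same arrays as the calls, so they are given as description and not as support.

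The strongest rise belonged to the PDR branch of ABCG, which holds exporters of defence compounds and hormones. A cDNA resembling the PDR5-like transporter of duckweed (AK073104), a gene described from that plant's resting buds, had intensities of 607, 812 and 723 in mutant replicates 1, 2 and 3, against 200.3, 161 and 149 in wild-type replicates. Every mutant value was thus more than 3 times the wild-type value of the same replicate, and the gap was narrowest in replicate 1. The log2 ratio was 2.07 ± 0.41 (SD, n = 3), a rise of 4.20-fold (limma adjusted p = 0.00551), and it was called, between 1.94 and 2.63, under each of the 17 alternative settings tried on single cDNAs.

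The same duckweed description is carried by 5 other cDNAs, of which 4 could be tested. Their log2 ratios lay between -0.07 and -0.01 and none was called in limma. The remaining one (AK067899) was well above background on 0 arrays in both genotypes and has no value here. A difference in response between AK073104 and these cDNAs was not tested as such.

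PEN3, also called PDR8 or ABCG36, exports defence compounds at the plasma membrane of Arabidopsis. One rice cDNA like it (AK059549) had intensities of 753, 667 and 605 in mutant and of 600.1, 519 and 467 in wild-type replicates. The lowest mutant value just cleared the highest wild-type one, and the rise within each replicate was even: 0.33, 0.36 and 0.37 on the log2 scale. Its mean of 0.35 ± 0.02, or 1.28-fold, was called (adjusted p = 0.00740), but not without replicate 2 (0.0647). The other cDNA with that description (AK067653) read -0.01 ± 0.03, and a cDNA like PDR2 or ABCG30 (AK070410) read -0.03 ± 0.03. Over the PDR cDNAs that the description rule found 2 of 8 tested rose, 0 fell and 6 were not called, with a median of -0.02. Of all probes 14.6% were called higher and 10.1% lower. PDR cDNAs under other names, given further below, were called in both directions.

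The WBC branch of ABCG, shorter proteins that pair up and include exporters of wax and cutin, had 1 cDNA called higher and 2 called lower of 13 tested. The most marked fall among all ABC cDNAs belonged to one like Arabidopsis WBC5 or ABCG5 (AK105826). It had intensities of 259, 212 and 277 in mutant and of 526, 392 and 399 in wild-type replicates. Mutant values were lower in each replicate, least so in replicate 3, where the log2 ratio was -0.52, against -1.02 and -0.89 in replicates 1 and 2. The mean was -0.81 ± 0.26, so the wild type was 1.75-fold above the mutant (adjusted p = 0.0129). The call was lost without replicate 1 (adjusted p = 0.0689) and without replicate 2 (0.0778). The other cDNA of this description (AK111176) read -0.02 ± 0.04.

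WBC11, or ABCG11, exports wax and cutin precursors in Arabidopsis, and 8 rice cDNAs carry its description. AK070637 fell, with 501, 484 and 399 in mutant and 653, 570.4 and 534 in wild-type replicates, a log2 ratio of -0.35 ± 0.10 (adjusted p = 0.0161). AK064945 rose, with 2453, 2328 and 2210.3 in mutant and 2135, 2079.8 and 1765 in wild-type replicates, a log2 ratio of 0.23 ± 0.08 (adjusted p = 0.0347). In both, all mutant values lay to one side of all wild-type values. The nearest mutant and wild-type values were 501 and 534 for AK070637 and 2210.3 and 2135 for AK064945. AK070637 was no longer called without replicate 1 (adjusted p = 0.0920) or replicate 2 (0.0535). The call of AK064945 was lost under 8 of 17 alternatives: without any 1 replicate (adjusted p = 0.123, 0.118 and 0.0750 without replicates 1, 2 and 3), with the scanner's processed signals, with the deposited value table, with normexp and no offset, with median centring and in the orientation with Cy3-labelled mutant cRNA.

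Of the other 6 cDNAs like WBC11, 4 were tested and read -0.11 to -0.07 with no call; AK065634 and AK110787 were too dim, at 1 and 2 arrays well above background in the mutant. The 3 cDNAs like ABCG1, known in Arabidopsis from suberin, read -0.07 to 0.04, and the 2 like WBC23 or ABCG22 read -0.06 and 0.06. The other 10 of the 13 tested WBC cDNAs were not called, and the median was -0.07.

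Within ABCB, the MDR or P-glycoprotein type holds the auxin exporters of Arabidopsis, ABCB1 and ABCB19. None of the 3 cDNAs like ABCB19 was called in limma: AK105961 and AK069342 read 0.01 ± 0.16 and 0.01 ± 0.04. The third, AK103526, read -0.19 ± 0.09, with -0.11, -0.15 and -0.29 in replicates 1, 2 and 3 (unadjusted p = 0.0180, adjusted p = 0.0642). The cDNA like ABCB1 (AK111817) read 0.12 ± 0.07 (adjusted p = 0.118, unadjusted 0.0432). Their 95% limma intervals ran from -0.32 to -0.05 and from 0.01 to 0.23, so neither reached a 1.5-fold change.

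The 2 cDNAs like the cotton P-glycoprotein CMDR1 were called in opposite directions. AK110945 had intensities of 142, 122 and 118 in mutant and of 110.3, 104 and 103 in wild-type replicates, a rise of 0.26 ± 0.09 on the log2 scale (adjusted p = 0.0257). AK103774 had 1457, 1420.1 and 1424 in mutant and 1599, 1723 and 1663 in wild-type replicates, and fell by 0.21 (SD 0.07, adjusted p = 0.0349). The rise was 1.20-fold and the fall 1.16-fold as wild type over mutant, with opposite signs in each replicate. The log2 ratio of AK110945 ranged from 0.21 to 0.57 over the alternatives, highest with the scanner's processed signals, which carry no offset. Without replicate 1 its adjusted p was 0.0826 and without replicate 2 it was 0.123. The call of AK103774 was lost under 6 of 17 alternatives, among them leaving out any 1 replicate (adjusted p = 0.0710, 0.193 and 0.0907 without replicates 1, 2 and 3) and the orientation with Cy3-labelled mutant cRNA (0.143), where it read -0.12. The 2 cDNAs like potato pmdr1 (AK111869 and AK106260) read 0.05 ± 0.05 and 0.03 ± 0.08, and the 2 like Arabidopsis ABCB16 (AK107554 and AK064769) read -0.02 ± 0.06 and -0.03 ± 0.01. Of the 10 MDR-type cDNAs that the description rule found 1 rose, 1 fell and 8 were not called.

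**Figure D3:**
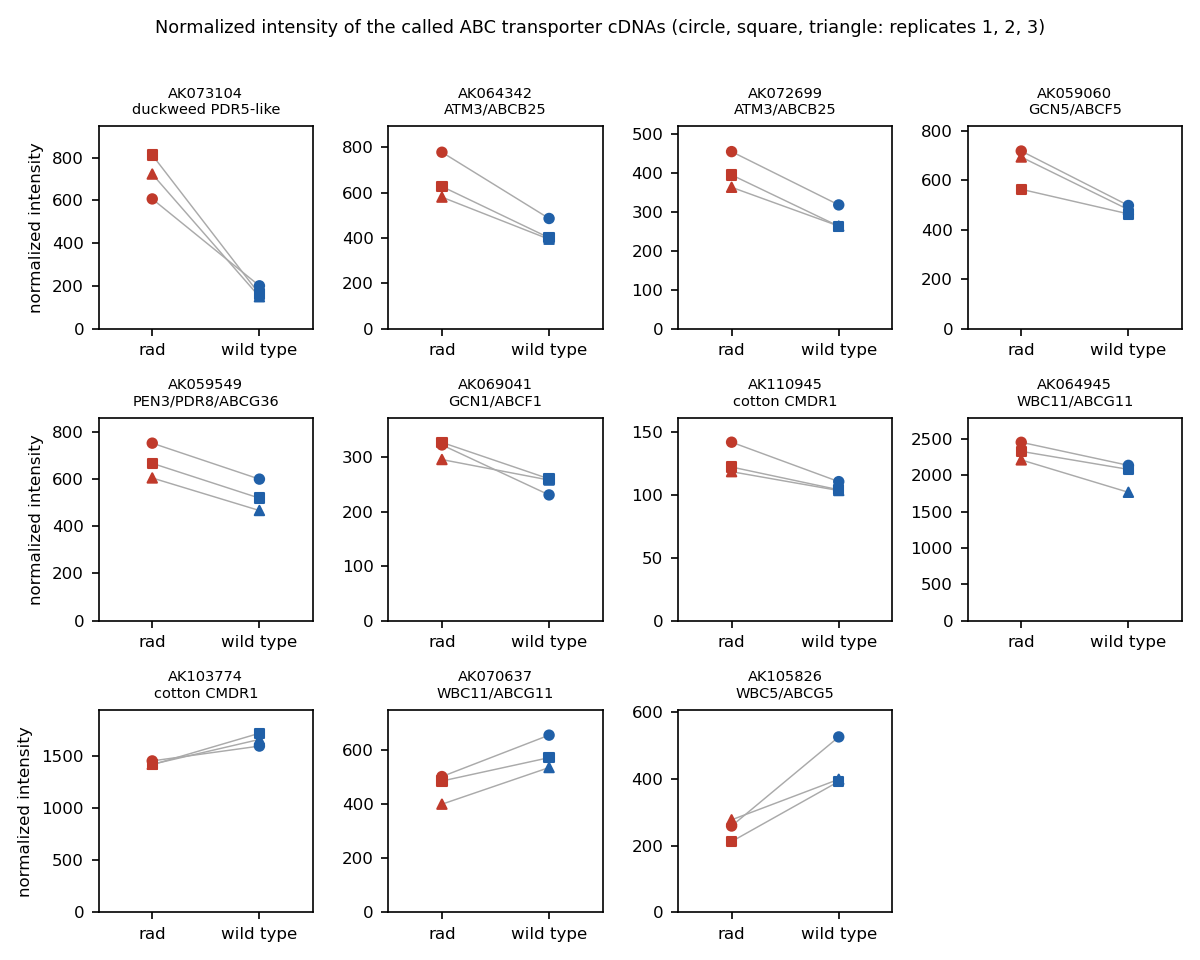
Normalized intensity (linear scale from 0) of 11 called ABC cDNAs in the *rad* mutant (left, red) and the wild type (right, blue); lines join the genotypes of a replicate. The panels run from the largest rise (AK073104, 2.07 on the log2 scale) to the largest fall (AK105826, -0.81), and in none do the genotypes overlap.

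ATM3, or ABCB25, sits in the inner mitochondrial membrane of Arabidopsis and exports a sulphur compound used to build iron-sulphur clusters in the cytosol. Of 3 rice cDNAs like it 2 rose. AK064342 had intensities of 778, 627 and 580.1 in mutant and of 486, 401 and 394 in wild-type replicates. AK072699 had 455, 395 and 363 in mutant and 318, 263 and 264 in wild-type replicates. In both, replicate 1 was brightest in either genotype while the ratio varied little. The log2 ratios were 0.63 ± 0.06, or 1.54-fold (adjusted p = 0.00449), and 0.52 ± 0.06, or 1.44-fold (adjusted p = 0.00548). Both calls were kept under each of the 17 alternatives. The third cDNA (AK109687) read -0.06 ± 0.10 and was not called. IDI7, a related barley transporter of the vacuolar membrane described from iron-deficient roots, matched a rice cDNA (AK066049) that read -0.20 ± 0.12, with -0.18, -0.08 and -0.32 in the replicates (adjusted p = 0.0804).

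ABCF proteins are soluble relatives of yeast GCN20, a regulator of translation. Of 5 cDNAs 2 rose and 0 fell, with a median of 0.34. One like GCN5 or ABCF5 of Arabidopsis (AK059060) had 718, 564 and 694 in mutant and 498, 464 and 481 in wild-type replicates. Replicate 2 showed the smallest gap. Its log2 ratio was 0.45 ± 0.14, or 1.36-fold (adjusted p = 0.0162), and the call was lost without replicate 1 (0.0927). One like GCN1 or ABCF1 (AK069041) had 323, 328 and 296 in mutant and 231, 261 and 258 in wild-type replicates, a rise of 0.34 ± 0.14 (adjusted p = 0.0305). That call ended without replicate 1 (0.0951), without replicate 2 (0.139) and with Cy3-labelled mutant cRNA alone (0.0513). The second cDNA like GCN1 (AK063258) had a similar mean of 0.35 but an SD of 0.36, with 0.41, 0.68 and -0.03 in replicates 1, 2 and 3. It was not called (adjusted p = 0.159). cDNAs like GCN4 (AK102700) and GCN3 (AK100809) read 0.03 ± 0.13 and -0.11 ± 0.12.

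The remaining subfamilies had 1 cDNA each under the description rule and no call in limma. The MRP-like ABCC cDNA (AK099941) read 0.02 ± 0.05 (95% interval -0.09 to 0.12) but was well above background on only 4 arrays in the mutant and 3 in the wild type. The ABCA-type cDNA (AK065426) read -0.05 ± 0.07 (-0.17 to 0.06). The ABCI cDNA like NAP7 (AK072820), a plastid protein of iron-sulphur cluster assembly in Arabidopsis, read -0.14 ± 0.19, with -0.29, -0.20 and 0.06 in the replicates (-0.36 to 0.08). The barley P-glycoprotein homologue (AK067006) read -0.12 ± 0.04 (adjusted p = 0.0838, unadjusted 0.0265) and was called lower with normexp and no offset (0.0303) and with Cy5-labelled mutant cRNA alone (0.0333). The cDNA like OSA1 (AK099974) read 0.06 ± 0.07, and the match to fungal atrE (AK110795) -0.03 ± 0.03.

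Over the 37 cDNAs that were not called, log2 ratios lay between -0.20 and 0.35, and 18 had the same sign in all 3 replicates. For 36 of them the 95% interval of limma, not adjusted for the number of cDNAs, lay within a 1.5-fold change either way. The exception was AK063258, with -0.04 to 0.75. These intervals are of ratios that include the offset of 50, so for dim cDNAs they do not bound the uncompressed change. The dim AK067006 read -0.12 here, -0.30 with normexp and no offset, and -0.38 with the scanner's processed signals. At an unadjusted p under 0.05 there were 17 of 49 ABC cDNAs, 10 higher and 7 lower. The shares of all probes at that threshold, or with the same sign in all 3 replicates, were not counted. After adjustment 24.7% of all probes were called.

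Dye orientation altered the size of several changes. With Cy5-labelled mutant cRNA the median over the ABC cDNAs was 0.02, and with Cy3-labelled mutant cRNA it was -0.03, so its sign differed between the orientations. The median over all probes differed in sign as well, at 0.002 and -0.013. AK059060 read 0.60, 0.32 and 0.59 with the mutant in Cy5 and 0.45, 0.24 and 0.47 with the mutant in Cy3. AK105826 went the other way, with -0.93, -0.71 and -0.33 in the first orientation and -1.12, -1.06 and -0.72 in the second. AK073104 was high in both, with 1.54, 2.26 and 2.17 for the mutant in Cy5 and 1.66, 2.41 and 2.38 for the mutant in Cy3. The means used for the calls average the orientations.

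**Figure D4:**
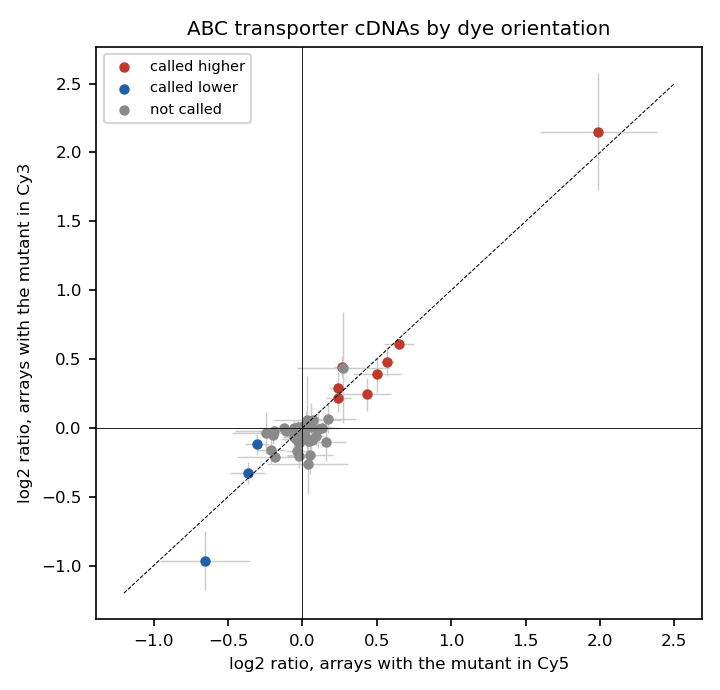
Mean log2 ratio of *rad* mutant over wild type for 46 tested ABC cDNAs on the 3 arrays with Cy5-labelled mutant cRNA (horizontal) and the 3 with Cy3-labelled mutant cRNA (vertical); grey bars are SDs and the dashed line marks equal values. All 11 called cDNAs shown lie in the quadrants where both orientations have the same sign.

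The 3 replicates were compared with each other. Across the 49 ABC cDNAs their log2 ratios correlated at r = 0.927 (replicates 1 and 2), 0.886 (1 and 3) and 0.921 (2 and 3), against 0.885, 0.755 and 0.840 across all probes. These are correlations across cDNAs, which are not independent replicates and share arrays, and AK073104 lies far from the rest. The median SD over replicates was 0.07 for ABC cDNAs and 0.08 for all probes. Fits with 1 replicate fewer kept the calls unevenly. Without replicate 1 there were 5 ABC calls (7.47% of all probes were called), without replicate 2 there were also 5 (5.94%), and without replicate 3 there were 11 (22.9%). Of the original 12 calls 5, 5 and 10 were kept. AK073104, AK064342 and AK072699 were called in each of these fits. Other settings called 10 to 15 ABC cDNAs. With a replicate block on the 6 arrays 15 were called (34% of all probes), with a dye term added 14 (32.1%), with Cy5-labelled mutant cRNA alone 15 (27%) and with Cy3-labelled mutant cRNA alone 10 (24.8%). The scanner's processed signals and the deposited value table each gave 10 (24.2%), and median centring gave 11 (26%). With 12 calls came normexp without offset (24.3%), no background subtraction (24.1%), no filter on dim probes (23%), a stricter filter (25.8%), outlier spots kept (24.2%), saturated probes left out (24.7%) and a robust, trended variance prior (27.1%). The ABC count thus moved with the count over all probes in the replicate-block fits.

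**Figure D5:**
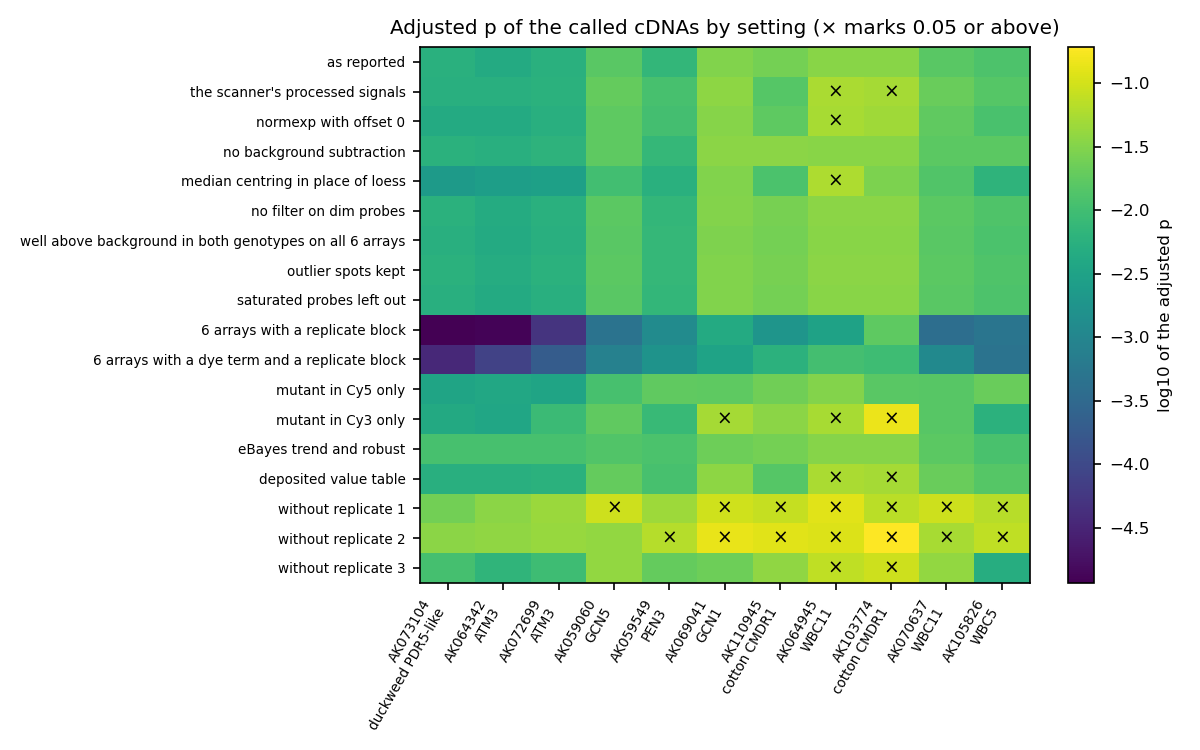
Adjusted p in limma of 11 called ABC cDNAs (columns) as reported and under 17 other settings (rows), as log10 on a colour scale; a cross marks 0.05 or above. Columns of AK073104, AK064342 and AK072699 have no cross, whereas AK064945 has 8.

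The description rule misses ABC proteins that go by other names. Of 8 tested cDNAs that a second set of words found 3 were higher and 0 lower, with a median of 0.10, beside 14.6% and 10.1% of all probes. All 3 resemble NtPDR1, a tobacco PDR transporter: AK100135 read 0.50 ± 0.08 (adjusted p = 0.00650), AK100858 read 0.84 ± 0.26 (0.0120) and AK105311, named after its value was seen, read 0.77 ± 0.30 (0.0190). AK100858 read 1.76 with the scanner's processed signals and 1.56 with normexp and no offset. The same NtPDR1 description is carried by AK103201, AK102367, AK060237 and AK065988, which were not called and read -0.08, 0.05, -0.03 and -0.02. Without replicate 2 the calls of AK100135 (0.0518) and AK105311 (0.0680) were lost. A further 18 tested cDNAs were collected by reading the descriptions, after the values of the others were known, and 4 of them were higher and 2 lower (median -0.01). Named here after their values were seen, the higher ones included a cDNA like Arabidopsis MRP4, an ABCC protein (AK100406, 1.54 ± 0.24, adjusted p = 0.00440). A pair like a putative MRP were AK064325 and AK065863, at 0.80 ± 0.10 and 0.75 ± 0.22, and a cDNA like wheat tamdr1 (AK108373) read 0.72 ± 0.36, or 1.56 with the scanner's processed signals. The other cDNA of the putative MRP description (AK073128) read 0.01 ± 0.33. The 5 other tested cDNAs like tamdr1 were not called, with AK109784 at -0.63 ± 0.60 and AK111341, AK101194, AK106698 and AK064221 at 0.10, -0.07, -0.03 and 0.02. Both lower ones resemble tobacco ABC1, a PDR transporter: AK058355 read -0.65 ± 0.30 and AK107688 read -0.78 ± 0.43, and an uncalled one of that description (AK105293) read 0.11 ± 0.24. Calls were lost without replicate 1 for AK065863 (adjusted p = 0.0789), AK058355 (0.0665) and AK108373 (0.140), and without replicate 2 for the same cDNAs (0.0604, 0.112 and 0.0561) and AK107688 (0.121). AK107688 also lost its call without replicate 3 (0.0988) and with Cy5-labelled mutant cRNA alone (0.0739), whereas AK100406 and AK064325 kept theirs under each of the 17 settings.

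Lists of other genes whose products supply or accompany ABC transport were counted in the same fit. In that fit 14.6% of all probes were called higher and 10.1% lower. Glutathione S-transferases make conjugates that ABCC pumps carry, and 9 of 50 tested probes were higher and 5 lower (median -0.03). By smallest p they included OsGSTU3 (AK061304, 1.87 ± 0.37) and a maize GST 13-like cDNA (AK059955, -0.69 ± 0.11). Another cDNA of the OsGSTU3 description (AK107435) read 0.04 ± 0.09 and was not called. For cuticle and wax lipids 0 of 13 were higher and 3 lower (median -0.05): the CER1 cDNA (AK100751), named for an enzyme of wax alkane synthesis, stood at -1.22 ± 0.40 and a 3-ketoacyl-CoA synthase 1-like cDNA (AK105487) at -0.20 ± 0.04. With the scanner's processed signals AK100751 read -2.30 and AK105487 read -0.33, and with normexp and no offset they read -2.09 and -0.36. The call of AK100751 was lost without replicate 2 (adjusted p = 0.0540), and that of AK105487 without any 1 replicate (0.0741, 0.173 and 0.0763) and with Cy5-labelled mutant cRNA alone (0.163). In peroxisomal beta oxidation and related peroxisomal proteins 1 of 22 was higher and 5 lower (median -0.0017), with a peroxisomal multifunctional protein (AK103620) at -0.60 ± 0.09 and an enoyl-CoA hydratase/isomerase-like cDNA (AK068152) at -1.24 ± 0.38. The call of AK068152 was lost without replicate 1 or 2 (0.0636 and 0.0705). Another cDNA of the same multifunctional protein description as AK103620 went the other way (AK073294, 0.31 ± 0.27) and was not called.

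Among carriers of polar auxin transport 0 of 10 were higher and 1 lower, REH1, a rice relative of the PIN auxin exporters (AK103208, -0.62 ± 0.04, adjusted p = 0.00395; list median -0.02). Of the vacuolar proton pumps and pyrophosphatases 2 of 23 were higher and 2 lower (median -0.05), such as a proton-ATPase subunit (AK100543, 0.63 ± 0.11) and an ATPase 69 kDa subunit (AK067063, -0.51 ± 0.09). Named after their values were seen, the other called ones were like a maize inorganic pyrophosphatase (AK059951, 1.72 ± 0.43) and a rice vacuolar proton-ATPase (AK063178, -0.27 ± 0.07). The former is not described as vacuolar. The single MATE efflux cDNA, from the other main family of plant multidrug exporters, rose (AK105402, 0.33 ± 0.10, adjusted p = 0.0191), a call lost without replicate 1 or 2 (0.0611 and 0.0962). Shares of called probes in these short lists are counts only and were not tested against those of other transcripts. They stand beside 14.6% of all probes called higher and 10.1% called lower.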

How the data were processed

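Per the file headers, the arrays are Agilent design 012106, quantified by Feature Extraction version 8.5.1.1. Deposited were the mean spot and median background intensity per channel, 0 or 1 flags, and dye-normalized processed intensity. The deposited log10 ratio of Cy5 over Cy3 equals the deposited value table to within 5e-06 after the sign is turned on swapped arrays; the median of its columns lay between -0.000853 and 0. Direction came from the labelled dyes. Ratios were made with limma 3.58.1 (R 4.3.3): normexp with an offset of 50, loess with controls at weight 0, and log2 ratios of mutant over wild type averaged over each dye swap. Same-numbered arrays pair by title; their deviations correlated at 0.805, 0.663 and 0.840. Probes had to be well above background in a genotype on at least 4 of 6 arrays (20213 of 21495) without outlier spots (266 removed). lmFit and eBayes fitted an intercept (two-sided). The procedure was tested on simulated ratios with independent replicates and a dye effect that cancels over each swap. That run checked the code and does not bear on the calls made here. 18 alternatives were run.

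Members, lists and tests were chosen with earlier results of these data known. Named were all called members (11 of 12; results on 3 cDNAs, 1 of them called, are not reported here beyond the totals), the smallest p of each subfamily without calls, and up to 2 called members of each of 7 process lists and of the marker lists. The MATE pattern had also caught words such as glutamate and was corrected from the descriptions. Gene descriptions are those of the array design and can be old. Probe and gene sequences, loci and positions were not used here.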

Additional observations from a re-analysis of the deposited data

How the results depend on the processing

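The counts of 9 higher and 3 lower ABC cDNAs stayed within 1.5 times under the changes of background, normalization, filter, flags, saturation, variance prior and value table. With 1 cDNA per description, over at most 26 descriptions, 6 were higher and 2 lower. In the fit as reported 14.6% of all probes were higher and 10.1% lower, not reduced to 1 per description. The CMDR1 and WBC11 descriptions had calls in both directions, so these counts may depend on the cDNA kept. In a fit of the 6 arrays with a replicate block the lower count was 5, with a dye term and a replicate block it was also 5, and with Cy5-labelled mutant cRNA alone it was 6; the replicate block ended none of the 12 calls. The median ABC ratio was 0.024 with the mutant in Cy5, against -0.022 as reported. That of all probes was 0.002, against -0.0097. Leaving out a replicate gave 1184 to 4573 called probes, 5 to 9 higher and 0 to 2 lower ABC cDNAs and a median of -0.030 to -0.015. Where limma called 0 lower, without replicate 1 or 2, 5 and 3 of 49 were lower at an unadjusted p under 0.05. The share of all probes at that threshold was not counted in these fits. Each fit without a replicate rests on fewer samples, and its calls differed with the replicate left out. Without replicates 1, 2 and 3 there were 1491, 1184 and 4573 called probes. The cause was not tested for any of the settings. Of 35 described ABC cDNAs that were not called, the mean changed sign in 6 with the mutant in Cy5, in 7 with the mutant in Cy3, and in 5, 5 and 0 without replicates 1, 2 and 3. They include, with the mutant in Cy3, AK099974 (-0.0044), AK099941 (-0.057) and AK110795 (6.2e-05), and, without replicate 1, AK099941 (-0.0098 to 0.0352 with a replicate left out). Dim probes limit what can be read: 3 ABC cDNAs did not pass the filter.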
